A study of Ovis aries with 30 samples.

Results

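A set of 6 sheep genes of the extracellular matrix were followed in epicardial adipose tissue, the fat on the surface of the heart: COL1A2, COL3A1, COL6A1, DCN, MMP2 and MMP14. Every array probe whose gene name, gene identifier or written description pointed to 1 of these genes was kept, with no choice on its values. That gave 16 of the array's 15008 probes, for 6 of the 838 genes that could be named, and all 16 passed the filter on low intensity that kept 12872 probes. COL1A2 had 1 probe, COL3A1 had 4, COL6A1 and DCN had 2 each, MMP2 had 3 and MMP14 had 4. Probes of a gene are numbered from the brightest to the dimmest by their mean over the 30 arrays.

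RNA from 30 animals was hybridised to 1-colour Agilent sheep arrays. The Control fetuses (n = 8) and the CORT fetuses (n = 6) were taken at term, and the ewes of the CORT fetuses had received cortisol at 1 mg/kg per day. The Control lambs (n = 7) and the CORT lambs (n = 9) were 2 weeks old, and the ewes of the CORT lambs had received 0.5 mg/kg per day. Infusion started on gestational day 115. Per the study's methods the ewes of the lambs were infused during the night hours alone. Its methods do not describe the fetuses, and the paper speaks of infusion at 1 mg/kg per day as continuous in the group's previous studies. Only the ewes were infused, never the offspring. Because the regimens differed, the CORT fetuses and CORT lambs were not compared with each other directly. A set of twins was born in each of the lamb groups, the labels do not mark which animals shared a ewe, and all tests took the animals as independent.

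Type I and type III collagen are rod-shaped proteins that assemble into the fibrils of connective tissue, and fibroblasts and preadipocytes are their main makers in fat. Type VI collagen forms a finer network close around adipocytes, and decorin is a small proteoglycan that binds collagen fibrils and governs their spacing. The matrix metalloproteinases cut this material: MMP14 sits in the cell membrane and activates the secreted proform of MMP2, and both enzymes are restrained by the TIMP proteins. In bulk tissue such as this, a smaller number of matrix-making cells and less RNA per cell cannot be told apart.

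A part of the collagen probes could be recognised from their letters. In the helix of a collagen glycine returns at regular steps of 3 residues, and its codons start with GG, and 3 of the 16 probes carry that repeat. They are shown because the repeat is the signature of a collagen's coding sequence. A run of at least 6 codons GGN, each 3 codons from the next in a frame without a stop, was found in 24 of the array's 15008 probes (0.160%), on the strand the array gives, and 7 of those 24 had a collagen name. The search was made after values had been seen, and a match is a description. The glycine codons are in capitals.
COL1A2: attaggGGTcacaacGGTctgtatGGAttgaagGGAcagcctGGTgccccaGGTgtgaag
COL3A1 probe 1: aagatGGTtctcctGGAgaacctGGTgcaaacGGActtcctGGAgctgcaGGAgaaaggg
COL3A1 probe 4: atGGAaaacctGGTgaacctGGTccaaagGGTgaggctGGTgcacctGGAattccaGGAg
Of the other COL3A1 probes, the second and the third share 58 of their 60 bases and are close to 1 measurement.

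The identity of the COL6A1 probes was less certain. The array's gene name is COL6A1, whereas its description of the same sequence record speaks of the alpha 3 chain of type VI collagen, which is the product of another gene, COL6A3. Both probes are shown so that the gene can be looked up, and COL6A1 below means these 2 probes.
COL6A1 probe 1: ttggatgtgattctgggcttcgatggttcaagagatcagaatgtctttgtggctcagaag
COL6A1 probe 2: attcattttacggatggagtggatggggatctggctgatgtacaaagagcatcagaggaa

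Values are log2 intensities after background correction and quantile normalization. They can be compared between animals for 1 probe, and not between probes. Between arrays, 70.4% to 83.5% of spots were well above background. Fetuses and lambs had been placed on separate slides, 2 for each age, while each slide held Control and CORT animals. Differences between the ages therefore cannot be told apart from differences between their slides. In 1 fetus, Control fetus 2, the striated muscle markers MB and TNNC2 summed to 179246 on the linear scale against a median of 19324 in its group. The highest sum of Control lambs was 121650, in Control lamb 6, against a median of 22728. That of CORT fetuses was 65713 (CORT fetus 6, median 23297), and that of CORT lambs 57468 (CORT lamb 1, median 22414).

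The main difference lay between the ages. In Control lambs compared to Control fetuses, 10 of the 16 probes were higher and 1 was lower at a limma adjusted p under 0.05. Over all tested probes the shares were 20.3% higher and 21.3% lower. Before adjustment, at the same threshold, the 16 probes gave equal counts, against 23.9% and 24.8% of all probes. The same 10 probes had groups that did not overlap at all, a state found for 7.38% of all tested probes in the higher and 8.49% in the lower direction. The median difference of the 16 probes was 0.70 on the log2 scale, with a median of -0.01 over all probes. Every probe of COL1A2, COL3A1, COL6A1 and DCN was among those 10, together with 1 of the 4 MMP14 probes, whereas none of the 3 MMP2 probes passed. The 16 probes stand for 6 genes, and probes of 1 gene share their target, so the counts are not of independent values. The genes were also chosen with earlier results of these data known. Their counts beside the shares over all probes are therefore a description, not a test of the set. With slide as a random block the count was again 10 higher and 1 lower, for example COL1A2 at 1.55 with an adjusted p of 9.68e-05 in limma. No slide held both ages, so this fit cannot separate a shift between slides from one between ages.

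**Figure D1:**
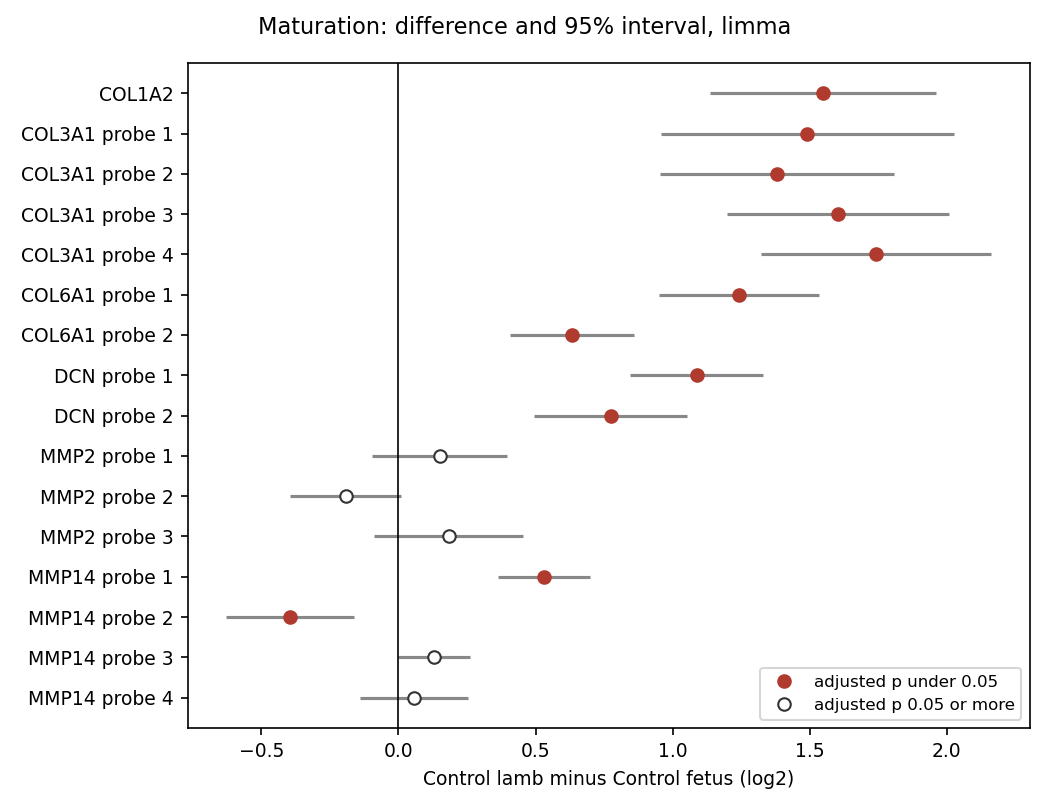
Difference between Control lambs (n = 7) and Control fetuses (n = 8) on the log2 scale for each of the 16 probes, with its 95% interval from limma, filled in red where the adjusted p was under 0.05. The 9 collagen and decorin probes lie between 0.63 and 1.74, while the MMP2 and MMP14 probes lie on both sides of 0.

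COL1A2 encodes the second chain of type I collagen. Its lowest, median and highest log2 intensities were 8.99, 9.98 and 10.51 in Control fetuses, 9.70, 10.17 and 10.35 in CORT fetuses, 11.08, 11.45 and 11.74 in Control lambs and 10.85, 11.37 and 11.80 in CORT lambs. All lambs of both treatments lay above all fetuses, and within an age the treatments overlapped. The mean was 9.88 ± 0.52 (SD, n = 8) in Control fetuses and 11.43 ± 0.22 (SD, n = 7) in Control lambs. The difference of 1.55 (SE 0.20) corresponds to 2.92-fold (95% interval 2.20 to 3.89), with an adjusted p of 1.08e-05 in limma. Exact permutation gave a two-sided p of 0.000155, the smallest that the 6435 splits of these 15 animals can give.

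COL3A1 encodes the single chain of type III collagen, which forms fibrils together with type I. The brightest of its 4 probes had lowest, median and highest values of 11.69, 12.97 and 13.64 in Control fetuses and 12.58, 12.99 and 13.27 in CORT fetuses. In Control lambs they were 13.70, 14.44 and 14.86, and in CORT lambs 14.07, 14.41 and 14.74. The gap between the ages was narrow here, with the lowest Control lamb at 13.70 and the highest Control fetus at 13.64. The difference with maturation was 1.49 (SE 0.25, adjusted p 0.000178 in limma), or 2.81-fold (95% interval 1.94 to 4.07). The other helix probe, COL3A1 probe 4, ran from 9.37 to 10.94 in Control fetuses and 10.25 to 10.76 in CORT fetuses, and from 11.73 to 12.41 in Control lambs and 11.42 to 12.30 in CORT lambs. It differed by 1.74 (SE 0.20, adjusted p 3.83e-06 in limma), or 3.35-fold (95% interval 2.50 to 4.48), the largest difference of the 16 probes. The pair of overlapping COL3A1 probes differed by 1.38 and 1.60. Across the 30 arrays the deviations of the 4 probes from their group means correlated with r from 0.841 to 0.986, the highest being that of the overlapping pair, so that the probes ranked the animals much alike.

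A single fetus marked the lower end of these genes. Control fetus 2 had the lowest value of its group on COL1A2, on all 4 COL3A1 probes and on both DCN probes, for example 9.37 on COL3A1 probe 4 against a group median of 10.41. This is the animal with the highest muscle markers, and their part in its collagen values was not tested. Without it the difference between the ages was 1.42 for COL1A2, 1.32 to 1.60 for the COL3A1 helix probes and 1.03 for DCN probe 1, and the count of probes called was again 10 higher and 1 lower. Control lamb 6, with the highest muscle markers of the lambs, was the lowest Control lamb on both DCN probes, at 15.86 and 14.70. Without Control lamb 6 the difference was 1.53 for COL1A2 and 1.12 and 0.82 for the DCN probes. The part of its muscle markers was not tested either.

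The COL6A1 probes followed the fibrillar collagens with smaller differences. On the brighter probe the lowest, median and highest values were 8.26, 8.68 and 8.96 in Control fetuses, 8.45, 8.74 and 8.95 in CORT fetuses, 9.40, 9.79 and 10.43 in Control lambs and 8.96, 9.93 and 10.53 in CORT lambs. Control fetuses and Control lambs were apart, while CORT lamb 9 at 8.96 was level with the highest Control fetus. The difference with maturation was 1.24 (SE 0.14, adjusted p 2.96e-06 in limma), or 2.36-fold (95% interval 1.93 to 2.89). The dimmer probe ran from 7.40 to 7.89 in Control fetuses, 7.74 to 7.99 in CORT fetuses, 7.93 to 8.68 in Control lambs and 7.73 to 8.56 in CORT lambs, and it differed by 0.63 (SE 0.11, adjusted p 0.000170 in limma). With the intensities that the scanner software had itself corrected, that last difference came to 1.13. The offset of 50 used here is added before the logarithm and by its construction shrinks differences of dim probes. Its part in the gap between 0.63 and 1.13 was not tested, since no alternative changed the offset alone.

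DCN, the gene of decorin, was well above background in every animal on both probes. DCN probe 1 had lowest, median and highest values of 14.53, 15.01 and 15.31 in Control fetuses, 14.96, 15.21 and 15.55 in CORT fetuses, 15.86, 16.05 and 16.41 in Control lambs and 14.37, 16.05 and 16.42 in CORT lambs. Lambs were above fetuses with a single exception, CORT lamb 1, whose 14.37 was below every fetus. On DCN probe 2 that animal was at 14.96, inside the range of its group, 14.84 to 15.73, so the low value was seen on 1 of the 2 probes. DCN probe 2 ran from 13.64 to 14.51 in Control fetuses, 14.13 to 14.71 in CORT fetuses and 14.70 to 15.36 in Control lambs. The difference with maturation was 1.09 (SE 0.11, adjusted p 1.80e-06 in limma) on probe 1, or 2.13-fold (95% interval 1.80 to 2.51). On probe 2 it was 0.77 (SE 0.13, adjusted p 0.000188 in limma), or 1.71-fold (95% interval 1.41 to 2.07).

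**Figure D2:**
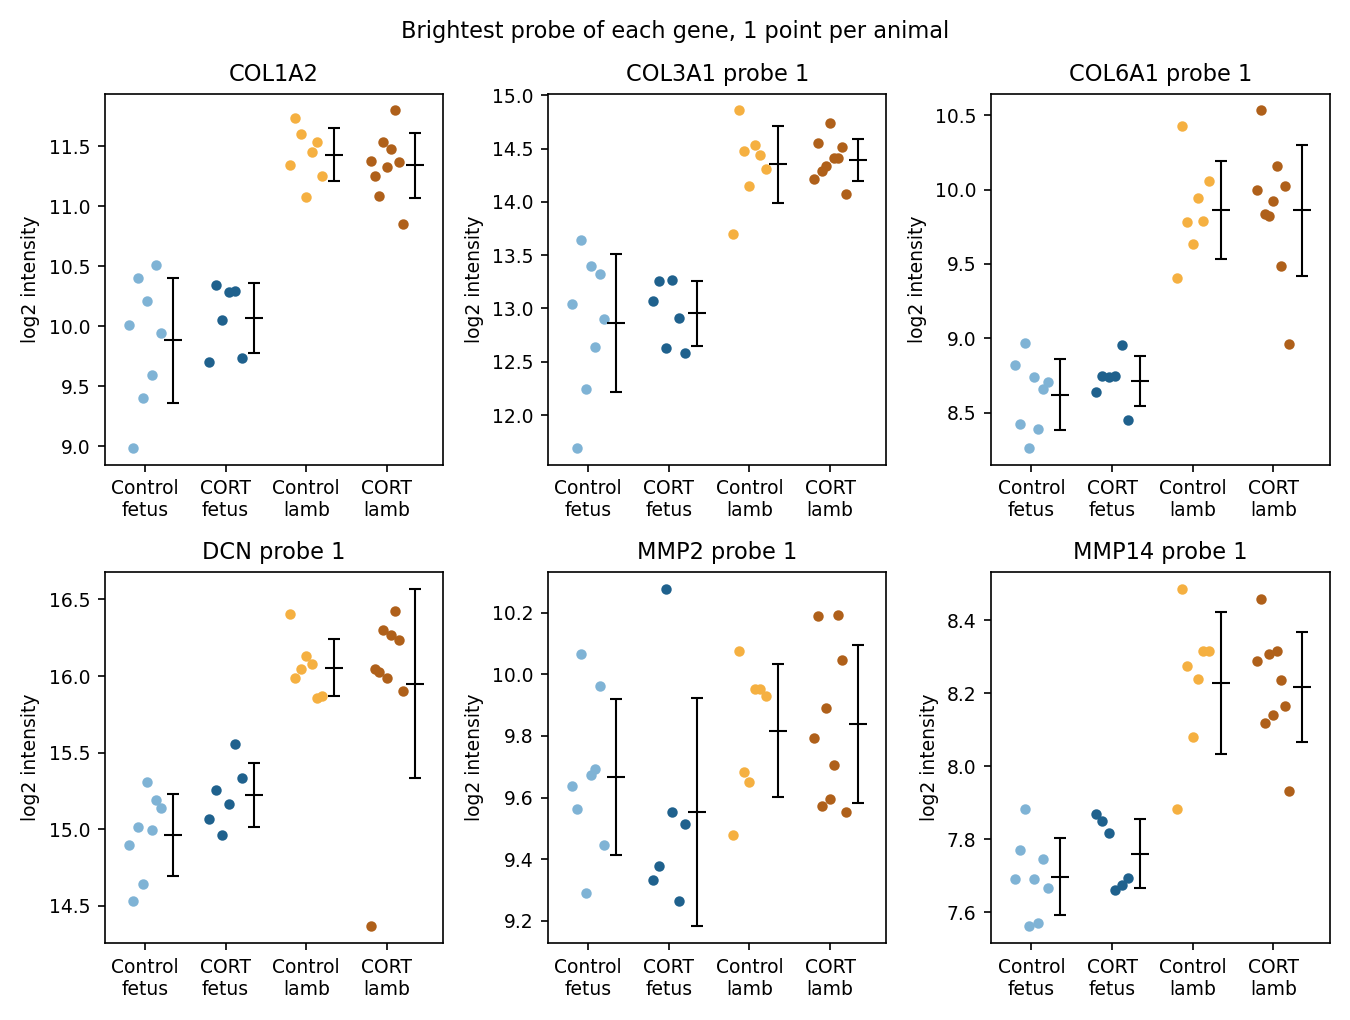
Log2 intensity of the brightest probe of each gene, with 1 point per animal in the 4 groups and a bar for the group mean ± SD. The collagen and DCN panels separate the Control fetuses from the Control lambs, the MMP2 panel does not, and CORT lamb 1 stands alone at 14.37 on DCN probe 1.

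MMP2 is the secreted gelatinase that cuts denatured collagen and type IV collagen. Its brightest probe had lowest, median and highest values of 9.29, 9.66 and 10.06 in Control fetuses, 9.26, 9.45 and 10.28 in CORT fetuses, 9.48, 9.93 and 10.08 in Control lambs and 9.55, 9.79 and 10.19 in CORT lambs. All 4 groups overlapped. The maturation difference was 0.15 (SE 0.12, adjusted p 0.322 in limma), with a 95% interval of 0.936- to 1.32-fold. MMP2 probe 3 differed by 0.18 (SE 0.13, adjusted p 0.277) and MMP2 probe 2 by -0.19 (SE 0.10, adjusted p 0.121). The probes thus had different signs, and none of them passed the threshold. Probes 1 and 3 correlated across the 30 arrays with r = 0.930 in their deviations from group means, and probe 2 correlated with them at 0.678 and 0.635.

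The structural genes were also set against the protease within each animal. For each Control animal the log2 value of MMP2 probe 1 was subtracted from that of COL1A2, and this difference was 1.40 higher in lambs than in fetuses (SD 0.22, n = 7, and 0.39, n = 8). For DCN probe 1 less MMP2 probe 1 the shift was 0.94. In both cases the 2 groups did not overlap. The pairs were chosen after the values had been seen, so these differences are descriptions, with no test.

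MMP14 gave no single answer, since its 4 probes disagreed. They are dim, and their sequences are shown for 3 of them because a pair of them overlap and still differ in their change. The 29 bases that probes 1 and 3 have in common are in capitals, and probe 2 shares no such run with either.
MMP14 probe 1: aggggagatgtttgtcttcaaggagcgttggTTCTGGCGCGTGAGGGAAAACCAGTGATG
MMP14 probe 3: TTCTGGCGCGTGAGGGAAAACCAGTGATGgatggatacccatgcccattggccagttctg
MMP14 probe 2: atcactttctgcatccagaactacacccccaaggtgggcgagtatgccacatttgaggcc

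MMP14 probe 1 had lowest, median and highest values of 7.56, 7.69 and 7.88 in Control fetuses, 7.66, 7.76 and 7.87 in CORT fetuses, 7.88, 8.27 and 8.49 in Control lambs and 7.93, 8.24 and 8.46 in CORT lambs. Every lamb was above every fetus, Control lamb 1 by less than 0.01. Its difference with maturation was 0.53 (SE 0.08, adjusted p 5.86e-05 in limma), or 1.44-fold (95% interval 1.28 to 1.62). MMP14 probe 2 ran the other way, at 7.23, 7.62 and 8.03 in Control fetuses, 7.34, 7.58 and 8.16 in CORT fetuses, 7.06, 7.22 and 7.43 in Control lambs and 6.92, 7.18 and 7.68 in CORT lambs. All 7 Control lambs lay below the mean of the Control fetuses, although the ranges overlapped, and the difference was -0.40 (SE 0.11, adjusted p 0.00820 in limma; exact permutation p = 0.00559).

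The other MMP14 probes did not pass. MMP14 probe 3 ran from 6.89 to 7.15 in Control fetuses and 6.97 to 7.32 in Control lambs, a difference of 0.13 (SE 0.06, adjusted p 0.103 in limma). MMP14 probe 4 ran from 6.76 to 7.04 and 6.75 to 7.40, a difference of 0.06 (adjusted p 0.651), and 2 of the 9 CORT lambs, alone among the 30 animals, did not exceed background clearly on it. In the same Control animals, probe 1 less probe 3 was 0.40 higher in lambs and probe 1 less probe 2 was 0.93 higher, pairs again chosen after their values had been seen and given with no test. Deviations of probes 1 and 2 from their group means correlated with r = -0.111 over the 30 arrays, and those of probes 1 and 3 with 0.534. The call of probe 3 depended on the processing: its difference was 0.45 with the software-corrected intensities, 0.16 without Control lamb 1, and past the threshold in both. Probe 2 reached -0.90 and probe 1 0.84 with the software-corrected intensities. Scaling the background-corrected values to the 75th percentile in place of quantile normalization took the call from probe 2, at -0.28, and gave one to probes 3 and 4, at 0.32 and 0.28. That scaling moved the median of all probes to 0.14 and the calls over all probes to 4780 higher and 2236 lower, against 2609 and 2743 in the normalization used here.

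**Figure D3:**
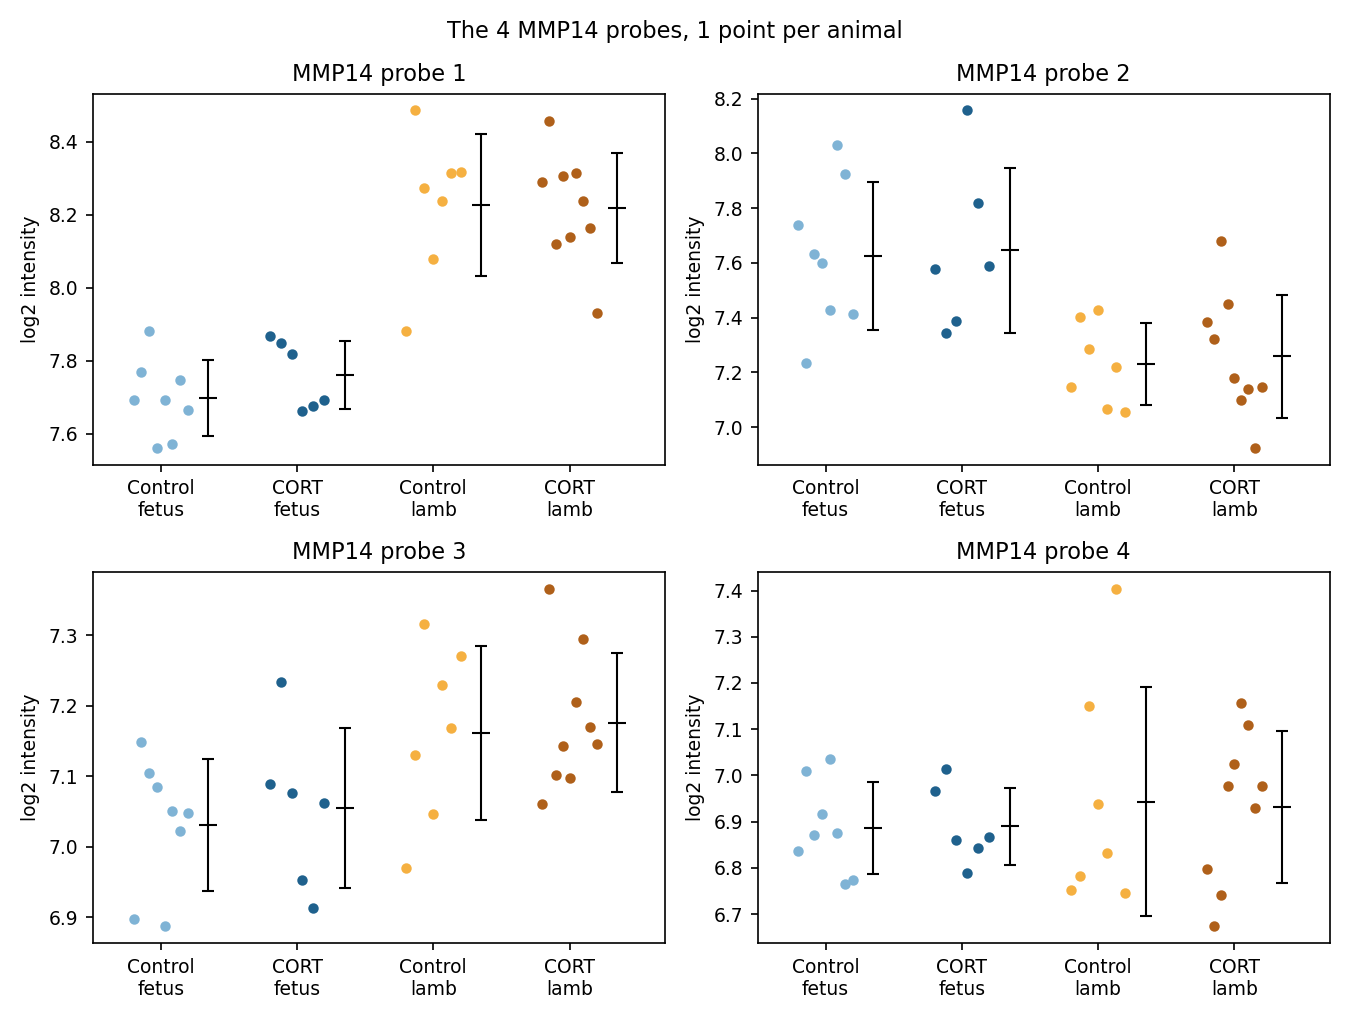
Log2 intensity of the 4 MMP14 probes, with 1 point per animal in the 4 groups and a bar for the group mean ± SD. The ages are apart on probe 1, with a difference of 0.53 between the Control groups, and overlap on probe 2, where that difference is -0.40, while probes 3 and 4 differ by 0.13 and 0.06.

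Maternal cortisol was examined separately at each age. In CORT lambs compared to Control lambs, 0 of the 16 probes passed an adjusted p of 0.05 in limma, as did 0% of all tested probes in either direction. At an unadjusted p under 0.05 the count was also 0, against 1.64% of all probes higher and 1.92% lower, and the groups overlapped on all 16. The differences ran from -0.10 for DCN probe 1 to 0.23 for DCN probe 2, both from the same gene, and their median was -0.01. For the helix probes the ratio of CORT to Control lambs and its 95% interval were 0.940 (0.790 to 1.12) for COL1A2 and 1.03 (0.849 to 1.25) for COL3A1 probe 1. They were 1.01 (0.858 to 1.20) for MMP2 probe 1 and 0.994 (0.876 to 1.13) for MMP14 probe 1. Other probes had wider intervals: 0.931 (0.674 to 1.29) for DCN probe 1 and 0.999 (0.765 to 1.31) for COL6A1 probe 1. DCN probe 2, with the largest difference, had a ratio of 1.18 (0.976 to 1.42, limma p 0.0840 before adjustment). Changes within these intervals, in either direction, remain possible, so that equality was not shown. The paper on these lambs names MMP14 among genes modestly increased in the epicardial fat of CORT lambs. Here the ratios of the MMP14 probes ran from 0.992 to 1.02, with upper interval limits of 1.11 to 1.17. The reason for this difference from the paper was not tested.

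In lambs the DCN probe 1 difference depended on 1 animal. Without CORT lamb 1 the difference on DCN probe 1 was 0.10 in place of -0.10, while on DCN probe 2 it was 0.27 in place of 0.23. CORT lamb 1 also had the highest summed striated muscle markers of its group, 57468 against a median of 22414, and their part in its DCN value was not tested. Within the slides, the cortisol difference on DCN probe 1 was 0.23 on slide 2 and -0.46 on slide 3. Of the 16 probes, 2 had the same sign on both lamb slides, COL1A2 and COL3A1 probe 1, while DCN probe 2 did not (0.49 and -0.01).

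In CORT fetuses compared to Control fetuses, limma again called 0 of the 16 probes at an adjusted p under 0.05, with 0% of all tested probes called in either direction. At an unadjusted p under 0.05 there was 1 probe, higher, where the share over all probes was 1.22% higher and 1.15% lower. None of the 16 probes had groups that did not overlap, against 0% of all probes in the higher and 0.0155% in the lower direction. The probe past the unadjusted threshold was COL6A1 probe 2, on which all 6 CORT fetuses lay above the Control mean, at 7.74 to 7.99 against 7.40 to 7.89 in Control fetuses. Its difference was 0.17 (SE 0.08, limma p 0.0436, adjusted p 1.00; exact permutation p = 0.0420). The 2 DCN probes had the largest differences, 0.26 (SE 0.12, limma p 0.0557, adjusted 1.00) and 0.25 (SE 0.15, limma p 0.104, adjusted 1.00). Of the 16 differences 13 were positive, with a median of 0.09 against -0.01 over all probes. Without Control fetus 2, the animal with the highest muscle markers, 8 of the 16 were positive, and the 4 COL3A1 probes lay between -0.07 and -0.02. With 75th percentile scaling of the background-corrected values 9 were positive, at a median over all probes of 0.27. The 3 negative differences with all animals were those of the MMP2 probes, at -0.11, -0.10 and -0.03.

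The precision in fetuses was lower than in lambs for the fibrillar collagens. COL1A2 had a ratio of 1.14 (0.826 to 1.57) and COL3A1 probe 1 a ratio of 1.07 (0.725 to 1.57), beside a wider spread among Control fetuses, whose SD was 0.52 for COL1A2 against 0.29 in CORT fetuses. Without Control fetus 2 the log2 difference of COL1A2 was 0.06 in place of 0.19, and that of COL3A1 probe 1 was -0.07 in place of 0.09. On slide 1 the 4 COL3A1 probes had cortisol differences of 0.31 to 0.38, and on slide 4 of -0.15 to -0.09, with opposite signs. Among the 16 probes, 6 kept 1 sign on both fetal slides, namely COL1A2, both COL6A1 probes, both DCN probes and MMP14 probe 1. The difference between the cortisol effects of lambs and fetuses, tested as an interaction in limma, passed the adjusted threshold for 0 of the 16 probes (0% of all probes in either direction) and an unadjusted p of 0.05 for 0 as well, against 1.08% of all probes higher and 0.971% lower. The largest was that of DCN probe 1, -0.36 (SE 0.28, p 0.201, adjusted 1.00), and it was -0.16 without CORT lamb 1. Since the ewes' doses differed, such a difference would not be one of age alone.

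**Figure D4:**
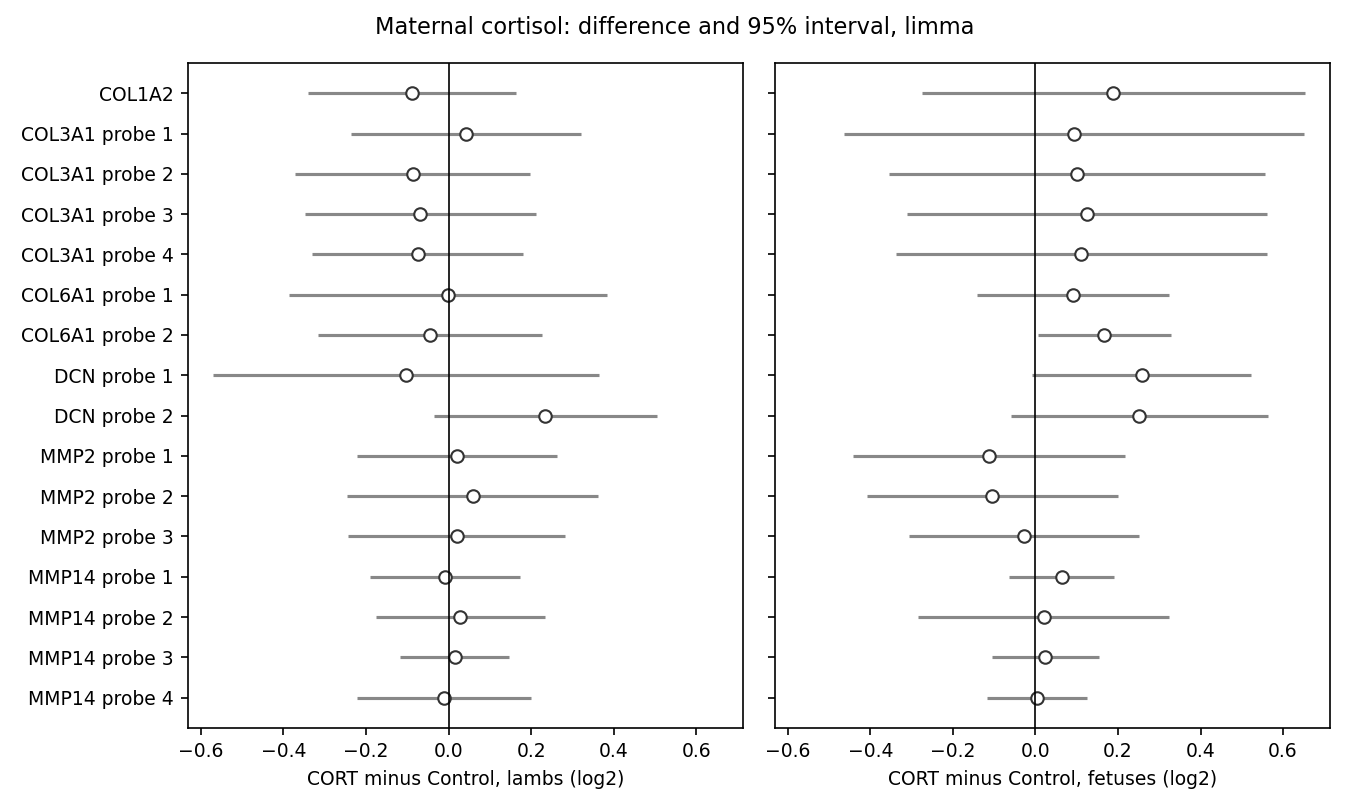
Difference between CORT and Control animals on the log2 scale for each of the 16 probes, with its 95% interval from limma, in lambs on the left and fetuses on the right. Open points mark an adjusted p of 0.05 or more, which is the case for every difference, and the only interval that leaves out 0 is that of COL6A1 probe 2 in fetuses.

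Covariation among animals of 1 age was examined in 5 pairs of genes with the brightest probe of each, after the group means had been subtracted, which gave a family of 10 relations. In the 14 fetuses COL1A2 and COL3A1 were closely related: Pearson's r was 0.901 (permutation p 0.000150, adjusted 0.00150) and Spearman's rho 0.873 (permutation p 0.000500, adjusted 0.00500). Without the 2 animals farthest out on COL1A2, Control fetuses 2 and 4, r was 0.786, and within the fetal slides it was 0.908 and 0.890. COL1A2 and DCN were related less firmly. Here Pearson's r was 0.704 (permutation p 0.0102, adjusted 0.0339) and Spearman's rho 0.723 (permutation p 0.00863, adjusted 0.0288). Without the same 2 fetuses r was 0.427 (permutation p 0.162). Leaving out the animals farthest out also narrows the range and leaves fewer animals, so this does not show that the relation rested on them. Within the slides r was 0.917 and 0.430.

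In the 16 lambs the closest pair was that of the proteases, read on probe 1 of each gene. The other MMP14 probes were not examined in this way. For MMP2 and MMP14 Pearson's r was 0.737 (permutation p 0.000930, adjusted 0.00465) and Spearman's rho 0.665 (permutation p 0.00817, adjusted 0.0288). Leaving out the 2 animals farthest out on MMP2 gave an r of 0.750, and within the lamb slides it was 0.458 and 0.913. For COL3A1 and MMP2 Pearson's r was 0.562 (permutation p 0.0186, adjusted 0.0396) and Spearman's rho 0.609 (permutation p 0.0153, adjusted 0.0382). Without Control lambs 1 and 2, the farthest out on COL3A1, r was 0.344 (permutation p 0.272), and it was 0.146 and 0.795 within the slides. For COL1A2 and MMP14 Pearson's r was 0.584 (permutation p 0.0198, adjusted 0.0396) and Spearman's rho 0.544 (permutation p 0.0380, adjusted 0.0759). Without CORT lambs 7 and 9 that r was 0.539 (permutation p 0.0745), and within the slides it was 0.788 and 0.666. COL1A2 and COL3A1 in lambs had an r of 0.502 that did not pass (adjusted permutation p 0.0682). The other 4 relations had r between 0.119 and 0.442 and did not pass either. The lowest was that of COL1A2 and DCN in lambs, with r of 0.826 on slide 2 and -0.144 on slide 3. Slide 3 held CORT lamb 1, whose low DCN value was seen on the probe used here alone, and its part was not tested. The relations of the 2 ages were not tested against each other.

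Among 719 other named genes, the one whose deviations from group means followed COL1A2 most closely over the 30 arrays was COL1A1, the partner chain of type I collagen, with r = 0.860. Next came FASN, the fatty acid synthase, at 0.651, MYLK, a smooth muscle myosin kinase, at 0.630, a probe named ATOX1 by its transcript record and ACSM3 in the array's description, at 0.585, and COL16A1, a fibril-associated collagen, at 0.583. For MMP2 the closest genes were SRSF3 (0.577), IGF1 (0.558), ERP29 (0.502), PDIA4 (0.496) and THRB (0.494). These are descriptions of arrays that share a platform and a normalization, with no test.

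Other genes of the matrix were read from a list of 111, of which 30 had a named and tested probe, each represented by its brightest. With maturation 14 of the 30 passed upwards and 2 downwards at an adjusted p below 0.05, with a median difference of 0.29. The shares over all 12872 probes were 20.3% and 21.3%, and the counts by role that follow rest on few genes each. This list too was chosen with earlier results of these data known, so its counts are descriptions. Under cortisol 0 of the 30 passed in lambs, in fetuses or in the interaction, and 0 had an unadjusted p under 0.05. Of 8 other collagens, 3 were higher and 0 lower with age. COL1A1 differed by 1.71 (SE 0.20, adjusted p 6.19e-06), close to COL1A2, though its second probe, at 0.60, did not pass (limma adjusted p 0.0976). COL16A1 differed by 0.81 (SE 0.14, adjusted p 0.000188). Also higher was COL4A3, a basement membrane chain, at 0.43 (SE 0.12, adjusted p 0.00914). Other basement membrane chains did not pass on their probes with the glycine repeat. COL4A1 differed by -0.27 (limma adjusted p 0.150) and COL4A2 by 0.02 (limma adjusted p 0.908). The only other proteoglycan that could be tested was BGN, biglycan, the closest relative of decorin, at 1.13 (SE 0.13, adjusted p 3.87e-06). Of 2 other matrix proteins 1 was higher, FBLN1, fibulin 1, at 0.56 (SE 0.10, adjusted p 0.000221), while CCN2, a connective tissue growth factor, differed by 0.27 (SE 0.29, adjusted p 0.480).

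On the side of degradation, 2 of 5 further proteases were higher and 1 lower. CTSS, the lysosomal protease cathepsin S of macrophages, differed by 1.00 (SE 0.20, adjusted p 0.000924) and PLAU, the urokinase that generates plasmin, by -0.45 (SE 0.07, adjusted p 4.14e-05), and the other higher one was CTSB, cathepsin B, at 0.31 (SE 0.09, adjusted p 0.00819). Of the 3 inhibitors of metalloproteinases, TIMP1 differed by 0.88 (SE 0.10, adjusted p 6.22e-06), TIMP2 by 0.49 (SE 0.07, adjusted p 4.54e-05) and TIMP3 by 0.04 (SE 0.17, adjusted p 0.865). Of 11 genes of growth factors, their receptors and their signalling inside the cell, 5 were higher and 1 lower. The largest differences were those of IGF1, insulin-like growth factor 1, at 1.21 (SE 0.22, adjusted p 0.000349), and TGFB2, transforming growth factor beta 2, at 1.03 (SE 0.16, adjusted p 7.52e-05). The other 3 that were higher were FGF2 (1.01), TGFB1 (0.37) and SMAD2 (0.20), and the lower one was PDGFB (-0.38). COL4A1, COL4A2, COL4A3, TIMP3, CTSB and these last 4 genes lay outside the rule for naming and were named after their values had been seen. None of the 11 genes of collagen synthesis on the list, such as the lysyl oxidases and prolyl hydroxylases, had a named probe that was tested.

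**Figure D5:**
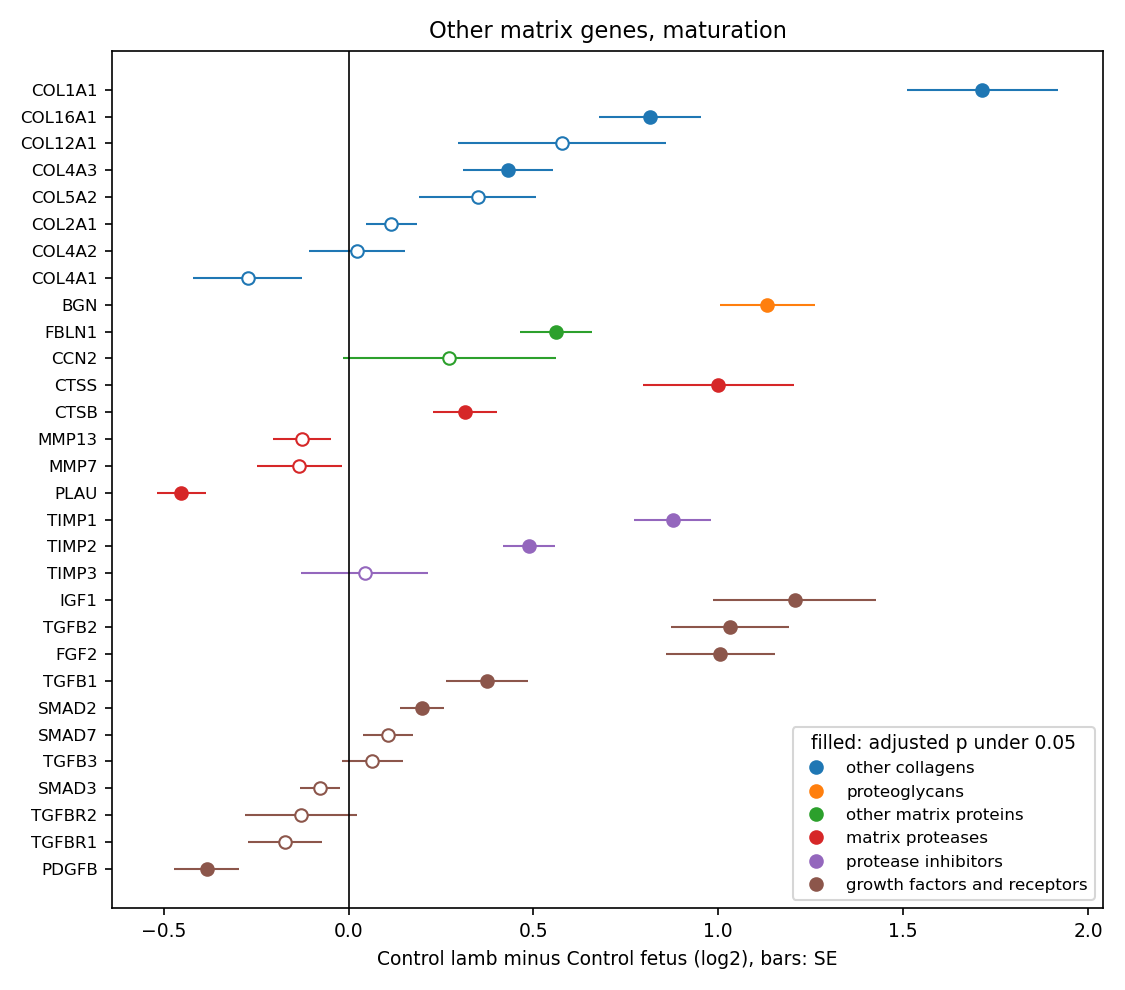
Difference between Control lambs (n = 7) and Control fetuses (n = 8) on the log2 scale for 30 other matrix genes, coloured by role, with bars for the SE and filled points for an adjusted p under 0.05. COL1A1 at 1.71 and BGN at 1.13 lie far to the right, while PLAU at -0.45 and PDGFB at -0.38 are the 2 that were lower.

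Markers of cell types also differed between the ages, beside the collagens. The 2 fibroblast markers with a tested probe, VIM and S100A4 out of 7 listed, were both higher with maturation, by 0.55 and 1.66. Their summed intensity ran from 112145 to 188318 in Control fetuses, 123912 to 176780 in CORT fetuses, 165539 to 244628 in Control lambs and 181930 to 257144 in CORT lambs. Of the adipocyte markers 3 of 8 were higher and 0 lower, and their sum ran from 39909 to 59950 in Control fetuses and 37410 to 100439 in Control lambs. The 2 brown fat markers, UCP1 and PPARGC1A, were both lower, with a sum of 14176 to 48991 and 938 to 4036 in those groups. Both macrophage markers, CD14 and TYROBP, were higher, by 0.28 and 0.78. Of the 4 endothelial markers 0 were higher and 1 was lower, FLT1, with a difference of -0.36. The markers of smooth muscle (1 tested), striated muscle (2), lymphocytes (3) and erythroid cells (2) had 0 called. The defining fibroblast markers PDGFRA, PDGFRB and THY1 had no named probe that was tested. The adipocyte genes FABP4, PLIN1 and LPL were well above background in all 30 animals, and so were the striated muscle markers MB and TNNC2. Being above background thus does not by itself set fat apart from muscle here. The part of these markers in the collagen and decorin differences was not tested.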

How the data were processed

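RNA from epicardial adipose tissue of 30 sheep was hybridised to 1-colour Agilent arrays, 15744 spots on each, on 4 slides. The deposited scanner files hold intensity values on a linear scale, extracted with Feature Extraction 10.1.1.1, per the file headers. The authors also deposited a log2 matrix, background corrected and quantile normalized in limma, of which only the lamb columns were used, as an alternative. Here, in R 4.3.3 with limma 3.58.1, mean intensities were corrected with normexp (offset 50), transformed to log2 and quantile normalized over the 30 arrays without control spots, and the 50 probes spotted 5 times were averaged. Probes at least 10% brighter than the 95th percentile of 77 negative controls on at least 6 arrays were tested (12872 of 15008).

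Groups came from the sample titles. Comparisons used lmFit and eBayes on the animals compared, with Benjamini-Hochberg adjustment over all 12872 probes, and the interaction used all 4 groups. Exact permutation tests took all 6435, 11440 or 3003 splits of the animals for maturation, lambs and fetuses, two-sided, and relations used 100000 permutations. The fits were tested on simulated data. Genes were named from the files' gene names and descriptions and, where identifiers allowed, from RefSeq (assembly ARS-UI_Ramb_v3.0), which named 1349 probes for 838 genes. No genome coordinates are given, since the files name no build. Of each role in the matrix list the 2 genes with the largest absolute change were named, and for COL1A2 and MMP2 the 5 most similar genes. Members and lists were chosen with earlier results of these data known. Alternatives were the software-corrected intensities, 75th percentile scaling, cyclic loess, other filters, slide or replicate blocks, array weights, 1 fit of all arrays, the deposited matrix and each animal left out. The number of arrays limits the precision.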

Additional observations from a re-analysis of the deposited data

Results flagged for a closer look

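A value far from the rest of its group was found in 5 of the 64 sets of values (16 probes in 4 groups), where chance marks about 1 in 20 such sets by Dixon's ratio. Of these, 2 were DCN and COL3A1 in CORT lambs. CORT lamb 1 had 14.37 on DCN probe 1, with the other CORT lambs at 15.90 to 16.42. CORT lamb 9 had 11.42 on COL3A1 probe 4, with the others at 11.92 to 12.30.

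The other 3 were MMP2 values. CORT fetus 3 had 10.28 on MMP2 probe 1, with the other CORT fetuses at 9.26 to 9.55, and 8.88 on MMP2 probe 3, with the others at 8.01 to 8.21. Control lamb 1 had 9.08 on MMP2 probe 2, with the other Control lambs at 9.33 to 9.51. The differences between groups were given with each animal left out in turn, and no call of an MMP2, COL3A1 or DCN probe changed.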

How the results depend on the processing

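In maturation the calls of COL1A2, COL3A1, COL6A1, DCN and MMP14 probe 1 held under all 10 alternatives and with each of the 15 animals left out, and the count of called probes was 11 to 12 in both. The difference of COL1A2 ran from 1.40 to 1.58 over the alternatives and from 1.42 to 1.64 with an animal left out, that of COL3A1 probe 4 from 1.60 to 1.83 and that of DCN probe 1 from 1.03 to 1.14 with an animal left out. The calls that changed were those of MMP14: probe 2 lost its call with 75th percentile scaling of the normexp values (adjusted p 0.0924), probe 3 gained one under 4 alternatives (0.16 to 0.45) and without Control lamb 1 (0.16), and probe 4 gained one with the same scaling of the normexp values (0.28, adjusted p 0.0482). The cause was not tested. Scaling the normexp values also moved the median of all probes to 0.27 in the fetal cortisol comparison. The cortisol comparisons and their interaction called 0 of the 16 probes under every alternative that was run and without each animal, and the sign of an uncalled difference changed in 67 of 432 values for lambs, 32 of 384 for fetuses and 61 of 624 for the interaction. Of the relations, COL1A2 with COL3A1 in lambs passed with cyclic loess (r = 0.64, adjusted permutation p 0.0126) and with the software-corrected intensities (r = 0.61, adjusted permutation p 0.0210).

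The replicate numbers did not pair the animals: correlations of same-numbered animals ran from -0.23 to 0.41, and 2 of 7 lambs, 2 of 6 fetuses and 0 of 7 animals across the ages correlated best with their own number. With the replicate block 10 probes were higher and 1 lower in maturation, COL1A2 by 1.56 (adjusted p 0.000586), and 0 were called under cortisol.

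The 7 to 9 animals a group, with 6 CORT fetuses, limit the cortisol comparisons to the intervals given. Fetuses and lambs shared no slide and their ewes' doses differed, and MMP14 probe 4 was not well above background in 2 CORT lambs.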

Other observations

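The probes with a glycine repeat gave a view of helix coding sequence that does not depend on gene names. All 24 passed the filter, and 16 were higher and 0 lower in Control lambs than in Control fetuses at an adjusted p under 0.05 in limma, where the shares over all tested probes were 20.3% higher and 21.3% lower. Of the 24, 7 carry a collagen name, and 3 of those 7 are the COL1A2 and COL3A1 probes already described. The other named ones did not pass: COL2A1 at 0.12, COL4A1 at -0.27, COL4A2 at 0.02 and a COL1A1 probe at 0.60. The count of higher probes is thus not one of all helical collagens. Some unnamed probes share a sequence record, and which genes the unnamed probes come from was not examined. They may repeat the same few collagens, so the count is not one of separate genes. This set was chosen after values had been seen and was not tested as a set.

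Single animals tended to hold the end of a group on many of the 16 probes at once. Control lamb 1 was the lowest of the Control lambs on 11 probes and Control lamb 2 the highest on 8. On DCN probe 1, however, Control lamb 1 was the highest of its group. Among CORT lambs, CORT lamb 9 was the lowest on 8 probes and CORT lamb 7 the highest on 6. Control fetus 2 was the lowest Control fetus on 9 probes and Control fetus 3 the highest on 7. Probes of 1 gene share their target, so these counts are not of independent values. The summed brown fat markers UCP1 and PPARGC1A were highest in the same Control lamb 1, at 4036 against a group median of 1949, and in CORT lamb 9, at 6900 against 1335. Their part in the low COL3A1 and COL6A1 values of these 2 lambs was not tested.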
